A study of Mus musculus with 384 samples.

Results

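GABA-A receptor subunit transcripts were examined in single midbrain dopamine (DA) neurons of the mouse, for 7 genes: *Gabra2*, *Gabra3*, *Gabra4*, *Gabra5*, *Gabrb1*, *Gabrb2* and *Gabrg1*. They were chosen by symbol from the count table, where all 7 were found among 26754 gene entries with at least 1 read. Cells with at least 500000 counted reads were retained, which were 209 of 384 cells. The study profiled single cells of 8 C57BL6/J DATIRESCre;Ai9 mice, 3 female and 5 male, with labelled ages of 24 to 36 postnatal days. Cre is made in these mice wherever *Slc6a3*, which encodes the dopamine transporter, is active, and it turns on a red tdTomato reporter, so that a cell stays red once it, or a cell it came from, has made Cre. Red cells that excluded propidium iodide, a dye that enters dead cells, were sorted from dissected midbrain that included the hypothalamus and were captured on a microfluidic chip, with 1 mouse per chip. The sexes and ages are those of the labels on each cell. The description of the series instead gives 6 male and 2 female mice of 26 to 34 days, so the sex of at least 1 mouse is in conflict. All mice carried the same alleles and received no treatment, so the groups compared here were classes of cells within mice, and male against female mice. The effects of a mouse and of its chip cannot be told apart.

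The GABA-A receptor is a pentameric chloride channel that opens when it binds GABA, the main inhibitory transmitter of the brain. Most receptors are built of alpha and beta subunits, which together form the GABA binding sites, and a gamma subunit, which forms the benzodiazepine site with an alpha subunit and helps to hold receptors at synapses. The alpha subunit sets much of the receptor's kinetics and drug sensitivity. DA neurons of the midbrain receive dense GABA input, and their receptors are known to shape pauses and bursts of firing.

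Counted reads ranged from 500672 to 1545100 per retained cell (median 780484), with 12 to 45 cells per mouse and a median of 9124 detected genes per cell. The cell just below the minimum had 498110 reads. Cells were divided by 3 marker genes. *Aldh1a7*, an aldehyde dehydrogenase gene close in sequence to *Aldh1a1*, so that reads could be shared between them, had 10 or more reads in 74 cells (*Aldh1a7*+), and *Neurod6*, a bHLH transcription factor gene, in 49 cells (*Neurod6*+), of which 18 had both. *Th*, the rate-limiting enzyme of dopamine synthesis, was at 1000 counts per 1e6 reads (CPM) or more in 181 cells (*Th*-rich) and below it in 28 cells (*Th*-poor). The lowest *Th*-rich cell had 1083 CPM and the highest *Th*-poor cell 757 CPM. All 28 *Th*-poor cells were negative for *Aldh1a7* and *Neurod6*. The label "dopamine neuron" was checked against 6 marker genes (*Th*, *Slc6a3*, *Slc18a2*, *Ddc*, *Nr4a2* and *Pitx3*), whose summed level had a median of 15361 CPM in *Th*-rich and 1937 CPM in *Th*-poor cells. *Th* itself set these classes, and without it the summed level of the other 5 had medians of 8612 CPM (722.5 to 15898) and 1643 CPM (12.5 to 3785). The ranges overlapped, and the label held less well for the *Th*-poor cells. At least 10 reads of a glial marker gene (*Aqp4*, *Gja1*, *Aldh1l1*, *Slc1a3*, *Mag*, *Mobp* or *Cldn11*) were found in 14 of the 209 cells. With *Gfap*, *Agt*, *Mbp* and *Mog* added, which gives all 11 listed astrocyte and oligodendrocyte markers, the number was 83, with *Mbp* detected in 56 and *Agt* in 22 cells. No cell barcode was shared by 2 cells (0 shared).

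On chromosome 5 (GRCm38), 4 of the 7 genes lie in 1 cluster, in the order *Gabrg1*, *Gabra2*, *Gabra4* and *Gabrb1*, over 1.40 Mb from position 70751047 to 72149572. *Gabra4* (71569734 to 71658308, minus strand) and *Gabrb1* (71657921 to 72149572, plus strand) are head to head, and their annotated ends overlap by 388 bases, where reads could not be assigned by strand, and reads that fell on more than 1 gene were left out by the authors. *Gabra2* lies at 70958392 to 71095849 on the minus strand. Outside the cluster, *Gabra3* is on chromosome X (72432676 to 72656919, minus strand), *Gabra5* on chromosome 7 (57407669 to 57591016, minus strand) and *Gabrb2* on chromosome 11 (42419515 to 42632591, plus strand).

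The promoters of the 4 clustered genes are shown because *Gabra2* and *Gabrg1* were found together in cells, and *Gabra4* and *Gabrb1* start close together on opposite strands. Each is 250 bases before to 50 bases after the annotated start in RefSeq (GRCm38.p6), written 5′ to 3′ on the gene's own strand. Capitals mark GGGCGG and CCAAT on either strand, and TATAAA was searched as well.
Gabrg1, chr5:70842568-70842867, minus strand: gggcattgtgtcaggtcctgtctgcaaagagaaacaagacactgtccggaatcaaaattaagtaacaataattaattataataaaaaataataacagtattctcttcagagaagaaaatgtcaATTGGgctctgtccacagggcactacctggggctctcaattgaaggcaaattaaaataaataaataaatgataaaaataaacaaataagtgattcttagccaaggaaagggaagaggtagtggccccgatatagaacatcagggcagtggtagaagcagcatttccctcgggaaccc
Gabra2, chr5:71095800-71096099, minus strand: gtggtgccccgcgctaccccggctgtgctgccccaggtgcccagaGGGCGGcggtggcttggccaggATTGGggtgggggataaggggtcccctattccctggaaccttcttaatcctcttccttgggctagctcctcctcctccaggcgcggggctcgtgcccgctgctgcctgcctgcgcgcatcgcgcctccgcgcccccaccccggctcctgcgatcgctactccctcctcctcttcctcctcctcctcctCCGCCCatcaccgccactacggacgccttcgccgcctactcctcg
Gabra4, chr5:71658259-71658558, minus strand: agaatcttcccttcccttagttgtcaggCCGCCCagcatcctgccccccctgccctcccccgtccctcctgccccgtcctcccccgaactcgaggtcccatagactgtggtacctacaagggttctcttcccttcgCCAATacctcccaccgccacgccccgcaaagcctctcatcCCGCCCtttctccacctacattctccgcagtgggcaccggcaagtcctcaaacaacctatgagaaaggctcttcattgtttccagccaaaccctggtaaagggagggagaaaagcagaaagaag
Gabrb1, chr5:71657671-71657970, plus strand: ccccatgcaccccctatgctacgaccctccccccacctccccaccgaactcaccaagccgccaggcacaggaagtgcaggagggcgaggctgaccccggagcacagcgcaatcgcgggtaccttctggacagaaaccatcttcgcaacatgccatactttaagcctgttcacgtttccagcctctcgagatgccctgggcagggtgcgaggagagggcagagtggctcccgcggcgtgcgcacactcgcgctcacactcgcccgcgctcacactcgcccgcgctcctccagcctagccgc

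The promoter of *Gabra2* was 70% G or C with 25 CG pairs and held GGGCGG 2 times and CCAAT once. That of *Gabrg1* was 38.33% G or C with 3 CG pairs and held CCAAT once. Over 32851 RefSeq promoters of the same length, the median was 52.7% G or C with 7 CG pairs, so the promoters of *Gabra2* and *Gabrg1* lay on opposite sides of the median. The *Gabra4* promoter (58.7%, 12 CG pairs) held GGGCGG 2 times and CCAAT once, and the first *Gabrb1* promoter (66%, 25 CG pairs) held none of these letters. The starts of *Gabra4* and *Gabrb1* were 387 bases apart. TATAAA was in none of these 4 windows. Among all promoters TATAAA was found in 13.6%, GGGCGG in 35.7% and CCAAT in 37.4%.

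The order of the subunit levels was read from counts summed over each mouse's cells, as CPM per kilobase of exon. *Gabrb2* was highest at 48.2 ± 24.1 CPM per kb (SD, n = 8 mice), then *Gabra3* at 27.8 ± 5.42, *Gabra4* at 20.2 ± 5.05, *Gabrb1* at 18.1 ± 4.55, *Gabra2* at 15.1 ± 10.3, *Gabrg1* at 12.2 ± 9.19 and *Gabra5* at 5.82 ± 5.99. *Gabrg1* was above *Gabra5* in 8 of 8 mice (two-sided exact sign-flip permutation test on log2 ratios, p = 0.00781, the smallest 8 mice allow). *Gabra2* was above *Gabrg1* in 7 of 8 mice (p = 0.0312, exact), and *Gabrb2* above *Gabra3* and *Gabra3* above *Gabra4* in 6 of 8 mice each (p = 0.0469 for both, exact). *Gabra4* and *Gabrb1* (p = 0.562, exact) and *Gabrb1* and *Gabra2* (p = 0.102, exact) did not differ beyond the spread between mice. These 6 neighbouring pairs were not adjusted for multiple testing. Leaving out 1 mouse left 1 to 3 of the pairs with p under 0.05 by this test, against 4 with all mice. Without mouse 3, *Gabrb1* passed *Gabra4*. With the longest transcript in place of all exonic bases, only *Gabrb2*, *Gabra2* and *Gabra5* kept their places, *Gabra4* passed *Gabra3*, and *Gabrg1* and *Gabrb1* took each other's place around *Gabra2*. Reads were weighted toward the 3′ end of transcripts (median 3′ bias 0.587 against 5′ bias 0.134 over cells), so levels per length compare genes only roughly.

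**Figure D1:**
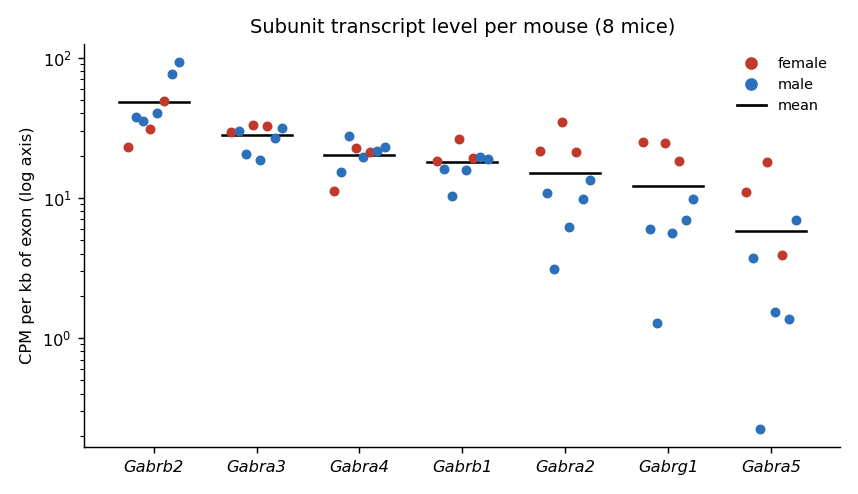
Level of each subunit gene in each of the 8 mice, in CPM per kilobase of exon on a log axis, with red points for female mice, blue points for male mice and a black line at the mean. *Gabrb2* had the highest mean (48.2) and *Gabra5* the lowest (5.82), and *Gabra2*, *Gabrg1* and *Gabra5* spread most between mice.

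Among the alpha subunits, *Gabra3*, which encodes the alpha3 subunit, was the most even between mice. Its summed level ran from 73.5 CPM in mouse 5 to 129 CPM in mouse 4 (median 117), a 1.76-fold range. *Gabra4*, whose alpha4 subunit is common in receptors outside synapses, ran from 67.6 CPM in mouse 1 to 168 CPM in mouse 3 (median 130.3), a 2.48-fold range. *Gabra2* ran from 23.9 CPM in mouse 3 to 266 CPM in mouse 4 (median 92.7), an 11.1-fold range. *Gabra5*, also known mainly from receptors outside synapses, ran from 0.67 CPM in mouse 3 to 53.2 CPM in mouse 4 (median 11.3), a 79.4-fold range. Mouse 3 was thus the lowest and mouse 4 the highest for both *Gabra2* and *Gabra5*.

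Of the beta subunits, *Gabrb1* ran from 142 CPM in mouse 3 to 366 CPM in mouse 4 (median 259) and *Gabrb2* from 147 CPM in mouse 1 to 589 CPM in mouse 8 (median 248). *Gabrg1*, which encodes the gamma1 subunit, was at 198, 192 and 144 CPM in mice 1, 4 and 6, and at 47.2, 10.1, 44.3, 54.9 and 77.7 CPM in mice 2, 3, 5, 7 and 8. The 3 high mice were the 3 females. As context, *Gabrq*, the gene of the theta subunit, was at 10.3 to 309 CPM between mice (mean 171). It was detected in 97 of 209 cells (46.4%). *Gabrg3* was at 0.53 to 10.5 CPM (mean 3.42), and *Gabra6*, *Gabrd* and *Gabrp* had no reads. A count without reads does not show that a gene was not expressed.

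Detection in single cells separated the members into widespread and restricted genes. With 10 or more reads counted as detected, *Gabrb1* was found in 196 of 209 cells (93.8%, exact 95% interval 89.6 to 96.7%), *Gabrb2* in 180 (86.1%, 80.7 to 90.5%), *Gabra3* in 162 (77.5%, 71.2 to 83.0%) and *Gabra4* in 151 (72.2%, 65.7 to 78.2%). *Gabra2* was found in 110 cells (52.6%, 45.6 to 59.6%), *Gabrg1* in 80 (38.28%, 31.7 to 45.2%) and *Gabra5* in 18 (8.61%, 5.18 to 13.3%). These intervals cover counting error only, since cells of a mouse share a chip. Between mice the share of *Gabrb1*-detected cells ran from 83.3 to 100% and that of *Gabra2* from 40 to 66.7%. The share for *Gabra4* ran from 38.9% in mouse 1 to 97.8% in mouse 3, and that for *Gabrg1* from 17.8% in mouse 3 to 61.1% in mouse 1. Mice 1 and 3 thus stood at opposite ends for these 2 genes.

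Levels in single cells spread widely. *Gabrg1* had a median of 1.45 CPM over all cells and a highest value of 996 CPM, *Gabra2* a median of 15.5 and a highest value of 969 CPM, and *Gabra5* no reads in 178 cells and up to 302 CPM in the other 31, of which 18 reached 10 reads. *Gabrb2* had a median of 223 and a highest value of 1686 CPM, and *Gabrb1* a median of 162 and a highest value of 1119 CPM, so both beta genes had higher maxima than these 3 genes. When every cell was thinned to 500000 reads, the shares were 92.8% for *Gabrb1*, 84.7% for *Gabrb2*, 47.8% for *Gabra2* and 36.4% for *Gabrg1*.

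Cells had a median of 4 of the 7 members. The commonest combination was *Gabra3*, *Gabra4*, *Gabrb1* and *Gabrb2*, in 40 cells (19.1%). The same combination with *Gabra2* was in 29 cells (13.9%), and with *Gabra2* and *Gabrg1* in 22 cells (10.5%). All 7 members were detected in 6 cells and none in 6 cells, and 5 of the latter were *Th*-poor. All 6 cells with every member were also *Th*-poor, so *Th*-poor cells held both extremes.

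Which of the 4 alpha members was highest per kilobase differed from cell to cell. Of 204 cells with reads of at least 1 of them, *Gabra3* was highest in 92 (45.1%), *Gabra4* in 79 (38.7%), *Gabra2* in 26 (12.7%) and *Gabra5* in 7 (3.43%). Among 56 cells with *Aldh1a7* and not *Neurod6*, *Gabra4* was highest in 33 (58.9%) and *Gabra3* in 22 (39.3%). Among 31 cells with *Neurod6* and not *Aldh1a7*, *Gabra3* was highest in 17 (54.8%) and *Gabra4* in 8 (25.8%). Among the 18 cells with both markers, *Gabra4* was highest in 10 (55.6%) and *Gabra3* in 6 (33.3%). In the 76 *Th*-rich cells with neither marker, *Gabra3* led in 44 (57.9%), and in 23 *Th*-poor cells *Gabra2* led in 14 (60.9%). *Gabra4* thus led in both classes with *Aldh1a7*, *Gabra2* in the *Th*-poor class and *Gabra3* in the other two. These are counts over cells that share mice, and they carry no test.

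**Figure D2:**
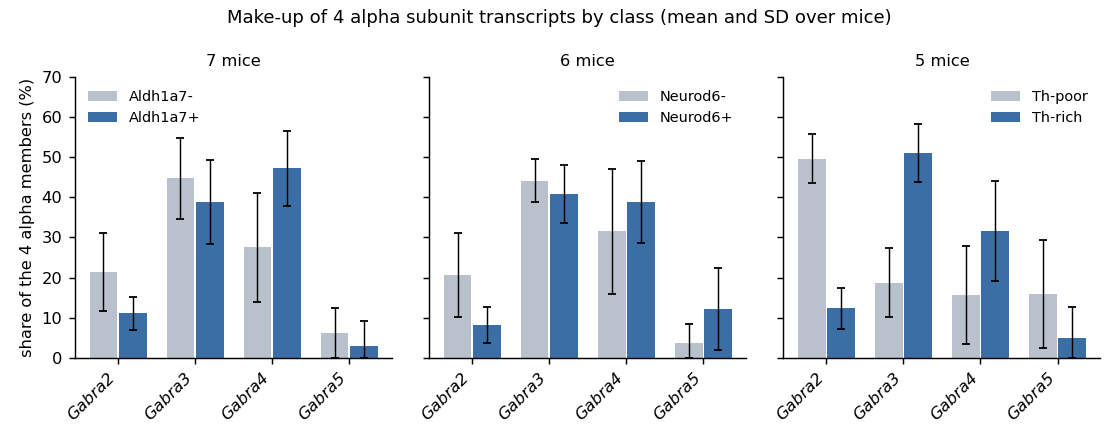
Share of *Gabra2*, *Gabra3*, *Gabra4* and *Gabra5* in the summed level per kilobase of these 4 genes, in percent, with bars for the mean and lines for the SD over mice, in *Aldh1a7*, *Neurod6* and *Th* classes (7, 6 and 5 mice). *Gabra4* took 47.3% in *Aldh1a7*+ and 27.5% in *Aldh1a7*− cells, and *Gabra2* 49.7% in *Th*-poor and 12.3% in *Th*-rich cells. *Gabra3* took 40.8% in *Neurod6*+ and 44.2% in *Neurod6*− cells, beside 38.8% for *Gabra4* in *Neurod6*+ cells.

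*Gabra2* and *Gabrg1*, neighbours in the chromosome 5 cluster, had the highest correlation of all pairs of members. Both were detected in 59 cells (28.2%). *Gabrg1* was detected in 53.6% of cells with *Gabra2* and in 21.2% of cells without it, and the share was higher with *Gabra2* in 8 of 8 mice. The Pearson correlation of log2(CPM + 1), centred within mouse, was 0.49 over 209 cells. Within the 181 *Th*-rich cells it was 0.34, with both detected in 39 cells. Correlations here describe cells that share mice, read depth and RNA content, and no p is given.

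The other pairs had lower values. Of 21 pairs of members, 19 had a correlation above 0, from −0.05 to 0.49 (median 0.12), and in *Th*-rich cells 12 were above 0 (median 0.03). The beta genes *Gabrb1* and *Gabrb2* followed at 0.40 and were detected together in 177 cells (84.7%). *Gabrb1* was at 0.35 with *Gabrg1*, 0.33 with *Gabra2* and 0.27 with its head-to-head neighbour *Gabra4*. The lowest values were *Gabra3* with *Gabrg1* (−0.05) and *Gabra4* with *Gabrg1* (−0.04). Every one of the 18 *Gabra5*-detected cells also had *Gabrb1* and *Gabrb2*, and 11 of them had *Gabrg1*.

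**Figure D3:**
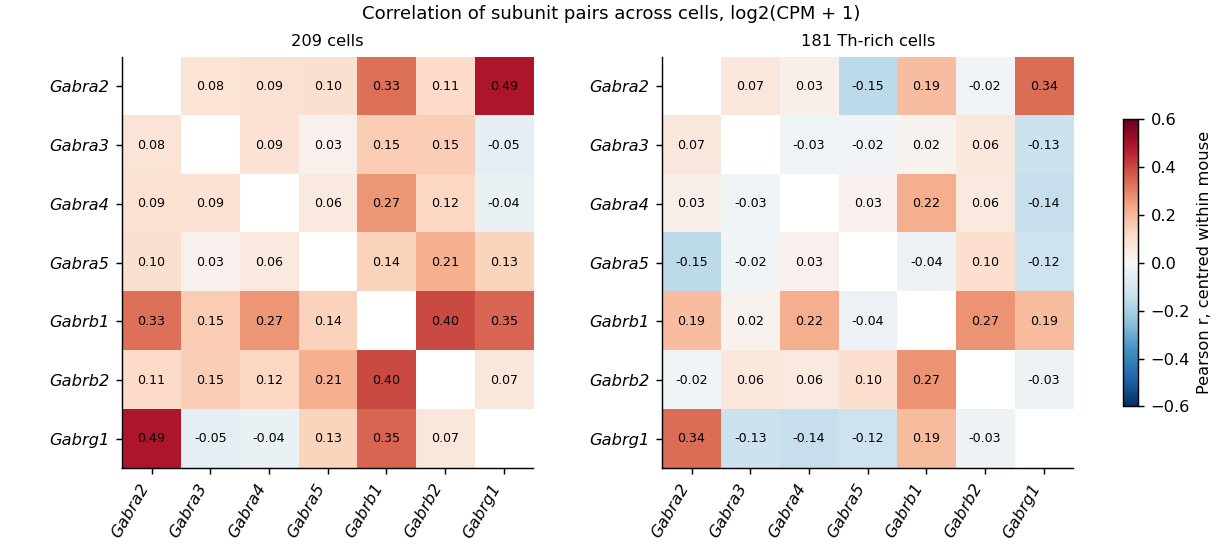
Pearson correlation of log2(CPM + 1), centred within mouse, for the 21 pairs of subunit genes over the 209 retained cells and over the 181 *Th*-rich cells. *Gabra2* with *Gabrg1* was the highest pair, at 0.49 over all cells and 0.34 in *Th*-rich cells.

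Over 12102 genes detected in at least 10 cells, the genes most like each member were ranked by the same correlation. *Gabrb2* and *Gabrb1* were each most like *Scg2*, a secretogranin of dense-core vesicles (r = 0.51 and 0.61). *Gabrb2* was next most like *Enc1* (0.50) and *Alcam* (0.49), a cell adhesion molecule, and *Gabrb1* next most like *Tmem59l* (0.56) and *Zcchc12* (0.53). *Gabra4* was most like *Slc6a3* (0.45), the dopamine transporter, the Cre transgene entry (0.45) and *Klhl13* (0.43). *Gabrg1* was most like *Pgr15l* (0.52), *Gabra2* (0.49) and the calcitonin receptor gene *Calcr* (0.45). *Gabra2* was most like *Gabrg1*, *Pgr15l* (0.43) and *Edil3* (0.42). *Gabra5* was most like *Irx6* (0.42), *Arpp21* (0.40) and the tachykinin precursor gene *Tac1* (0.38), and *Gabra3* most like *Napa* (0.40), *Wdr37* (0.39) and *Reep1* (0.38). *Gabra2* and *Gabrg1* were thus among the 3 most alike for each other.

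*Gabra2* was higher in *Th*-poor than in *Th*-rich cells. Counts were summed per mouse and class where a mouse had at least 3 of either kind, which was so in 5 mice (mice 1, 2, 4, 5 and 6; 24 *Th*-poor and 95 *Th*-rich cells). In *Th*-poor cells *Gabra2* was at 222, 235, 621, 259.7 and 489 CPM in these mice, and in *Th*-rich cells at 131, 60.8, 62.2, 25.2 and 47.2 CPM. The classes did not overlap, and *Th*-poor cells were higher in 5 of 5 mice. The difference was 5.73-fold (log2, *Th*-rich minus *Th*-poor, −2.52 ± 0.46 SE; edgeR quasi-likelihood test, adjusted p = 0.0384 over 11323 genes). With the mouse as a replicate block the adjusted p was 0.102, so the call was lost although the log2 difference was −2.63. The call was also lost without mouse 2, 4, 5 or 6 (edgeR adjusted p = 0.091, 0.159, 0.108 and 0.215) and held without mouse 1 (0.0322), and across the alternatives tried the adjusted p ran from 1.33e-05 (DESeq2) to 0.724. It was the only member called, beside 0.424% of all genes tested. By an unadjusted p under 0.05, 4 of 7 members were counted, beside 9.36% of genes (with the block, only *Gabra2* and *Gabrg1* stayed under it), and by DESeq2 2 of 7, beside 3.23% of genes. Values that did not overlap between classes were found for 1 of 7 members, beside 3.72% of genes.

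*Gabrg1* had a difference of similar size that did not pass the test. In *Th*-poor cells it was at 322, 75.6, 491, 196 and 435 CPM, and in *Th*-rich cells at 129, 42.9, 20.7, 28.7 and 42.7 CPM. It was higher in *Th*-poor cells in 5 of 5 mice, and the classes overlapped only through mouse 1 on the *Th*-rich side and mouse 2 on the *Th*-poor side. The log2 difference was −2.57 ± 0.58 (edgeR adjusted p = 0.101, and 0.0484 without mouse 1; DESeq2 adjusted p = 0.000466, the lowest of the alternatives, which reached 0.703). *Gabrg1* is among the genes the study listed for clusters of these same cells, so its direction here is not independent evidence.

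The other members were not called. *Gabra3* was lower in *Th*-poor cells in 4 of 5 mice, at 45.2, 53.4, 101, 97.3 and 27.3 CPM against 156, 126, 146, 71.0 and 163 CPM (log2 1.01 ± 0.41, edgeR p = 0.0283, adjusted p = 0.4657). *Gabrb1* was at 112, 387, 644, 573 and 349 CPM in *Th*-poor and 336, 199, 207, 180.1 and 235 CPM in *Th*-rich cells, higher in *Th*-poor cells in 4 of 5 mice with mouse 1 the other way (edgeR p = 0.0425, adjusted p = 0.518). *Gabra5* was at 10.0, 56.0, 146, 1.68 and 44.5 CPM in *Th*-poor cells and 45.4, 4.33, 0, 4.87 and 0 CPM in *Th*-rich cells, with no order that held in all mice (edgeR adjusted p = 0.723). *Gabra4* (edgeR adjusted p = 0.879) and *Gabrb2* (edgeR adjusted p = 0.785) overlapped widely.

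**Figure D4:**
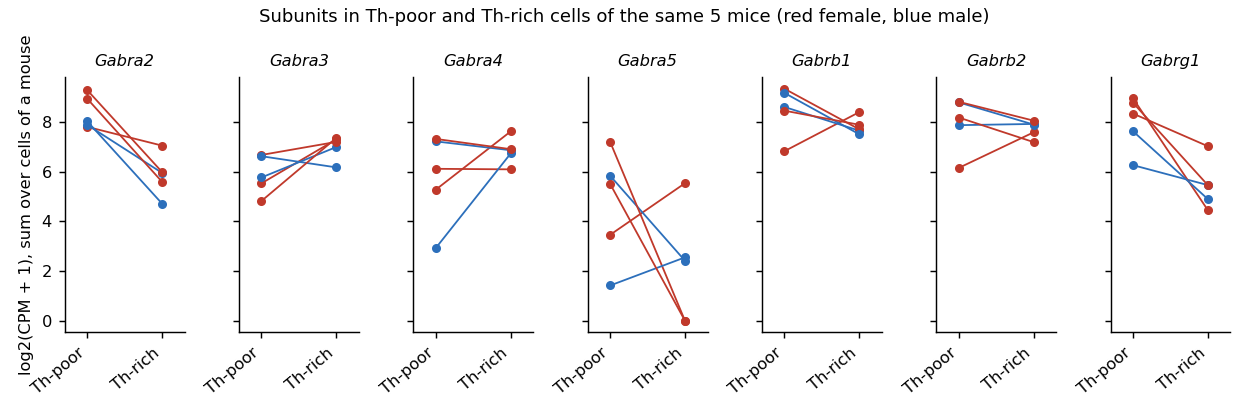
Summed level of each subunit gene, as log2(CPM + 1), in *Th*-poor and *Th*-rich cells of 5 mice, with lines joining the classes of 1 mouse (red female, blue male). *Gabra2* and *Gabrg1* were higher in *Th*-poor cells in all 5 mice, *Gabra2* with no overlap (222 to 621 CPM against 25.2 to 131 CPM before the log).

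Detection in single cells pooled over mice and the make-up of the 4 alpha members lay on the same sides. *Gabra2* was detected in 21 of 28 *Th*-poor cells (75%) and 89 of 181 *Th*-rich cells (49.2%; 43.6% after thinning), with medians of 229 and 10.1 CPM. *Gabrg1* was detected in 21 of 28 *Th*-poor cells (75%) and in 59 of 181 *Th*-rich cells (32.6%; 30.4% after thinning), with medians of 303 and 0 CPM. For both genes the detected share was higher in *Th*-poor cells in 4 of 5 mice and lower in 1. *Gabra5* was detected in 8 of 28 and 10 of 181 cells. *Gabra2* took 49.7 ± 6.13% of the summed level per kilobase of the 4 alpha members in *Th*-poor and 12.3 ± 5.07% in *Th*-rich cells (SD, n = 5 mice), and *Gabra3* took 18.8 ± 8.59% and 51.1 ± 7.26%. In all 5 mice these shares differed in the same direction.

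Markers of other cell types differed between these classes as well. Of the 7 glial marker genes named first, at least 1 was detected in 6 of 28 *Th*-poor cells (21.4%) and 8 of 181 *Th*-rich cells (4.42%), and of all 11 in 20 (71.4%) and 63 (34.8%). Of 5 oligodendrocyte markers 4 had reads in *Th*-poor cells (*Mog* was at 0), with a summed level of 0 to 45140 CPM, against 0 to 547 CPM in *Th*-rich cells. The medians were 29.9 and 0.79 CPM, and such a marker was detected in 17 of 28 and 42 of 181 cells. Over all cells *Mbp* was at 14.8 to 52.3 CPM in the 5 mice compared by *Th* status. It was at 568 and 281 CPM in mice 3 and 7, which were outside that comparison. Of 6 astrocyte markers 5 had reads in *Th*-poor cells (*Aldh1l1* was at 0), at 0 to 4235 against 0 to 108 CPM in *Th*-rich cells. The astrocyte sum had a median of 0 in both classes, and an astrocyte marker was detected in 5 of 28 and 26 of 181 cells. Summed glutamate neuron markers (*Slc17a7* was at 0) had medians of 502.7 and 14.7 CPM. A GABA neuron marker was detected in 11 of 28 *Th*-poor and 38 of 181 *Th*-rich cells (mean summed level 501 and 265 CPM), and an oligodendrocyte precursor marker in 3 of 28 and 3 of 181 cells (up to 692 and 21.7 CPM). Endothelial markers were at 0 in *Th*-poor cells. Read depth was lower in *Th*-poor cells (median 705186 against 784027 reads). Without the cells that had 1 of the 7 genes, a comparison chosen after the data were seen, the log2 difference was −2.64 for *Gabra2* (edgeR adjusted p = 0.0169) and −2.79 for *Gabrg1* (edgeR adjusted p = 0.0458), as large as with them. Of the 28 *Th*-poor cells, 14 had none of the 7 genes but had *Gfap*, *Agt*, *Mbp* or *Mog*, and these were not removed by this rule. Without cells that had any of the 11 genes, at least 3 cells per class could not be had. With at least 1 cell per class in 4 mice (8 *Th*-poor and 61 *Th*-rich cells), also chosen after the data were seen, the log2 difference was −2.46 for *Gabra2* (edgeR adjusted p = 0.724) and −1.54 for *Gabrg1* (edgeR adjusted p = 0.703), and neither was called. The part of the neuronal markers and of depth in these results was not tested.

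No member passed the test between *Aldh1a7*+ and *Aldh1a7*− cells, and *Gabra4* was the member with the higher level in *Aldh1a7*+ cells. At least 3 cells of each class were found in 7 mice (mice 2 to 8; 74 and 117 cells). *Aldh1a7* itself was at 381 against 1.58 CPM on average, which follows from its having set the classes. Of 7 members 0 passed the edgeR test, beside 0.407% of 12782 genes. By an unadjusted p under 0.05, 3 members were counted, beside 11% of genes, and by DESeq2 0, beside 2.69% of genes. Those 3 were *Gabra4*, *Gabrb1* and *Gabra2*. With the mouse as a replicate block the edgeR p was 0.0536 for *Gabra4*, 0.0186 for *Gabrb1* and 0.0241 for *Gabra2*, so *Gabra4* left the count.

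*Gabra4* was at 115, 158, 92.7, 155, 171, 191 and 339 CPM in *Aldh1a7*+ cells of mice 2 to 8, and at 81.0, 182, 158, 84.2, 114, 116 and 54.3 CPM in *Aldh1a7*− cells. It was higher in *Aldh1a7*+ cells in 5 of 7 mice, most of all in mouse 8, and the classes overlapped (log2 0.76 ± 0.31, edgeR p = 0.025, adjusted p = 0.355). Without mouse 8 the log2 difference was 0.39 (edgeR adjusted p = 0.645), and without any other 1 mouse it was 0.70 to 0.97. Detection showed the same side, at 68 of 74 *Aldh1a7*+ cells (91.9%, exact interval 83.2 to 97.0%) and 83 of 135 *Aldh1a7*− cells (61.5%, 52.7 to 69.7%), and after thinning at 91.9 and 59.3%. The share of detected cells was higher in *Aldh1a7*+ cells in 6 of 7 mice. *Gabra4* took 47.3 ± 9.37% of the level of the 4 alpha members in *Aldh1a7*+ and 27.5 ± 13.6% in *Aldh1a7*− cells, higher in 6 of 7 mice, while *Gabra2* took 11.0 ± 4.06% and 21.4 ± 9.69%, lower in 6 of 7 mice. *Slc6a3*, the gene most like *Gabra4* across cells, was called higher in *Aldh1a7*+ cells (log2 1.27 ± 0.24, edgeR adjusted p = 0.0334).

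*Gabrb1* was at 186, 137, 129.7, 159, 154, 137 and 265 CPM in *Aldh1a7*+ cells and 243, 151, 471, 269.8, 304, 306 and 261 CPM in *Aldh1a7*− cells, lower in 6 of 7 mice with mouse 8 about level (log2 −0.64 ± 0.22, edgeR p = 0.0111, adjusted p = 0.275). *Gabra2* was at 25.9 to 92.3 CPM (median 41.9) and 20.6 to 365 CPM (median 98.9), also lower in 6 of 7 mice (log2 −1.26 ± 0.49, edgeR p = 0.0199, adjusted p = 0.339). *Gabra3* was at 90.1 ± 34.0 and 119 ± 25.8 CPM and *Gabrb2* at 282 ± 254 and 352 ± 114 CPM (SD over 7 mice), each lower in 6 of 7 mice, *Gabrg1* was at 42.9 ± 32.5 and 96.6 ± 88.6 CPM, and *Gabra5* at 9.49 ± 22.8 and 17.9 ± 26.6 CPM. None of these 4 was called (edgeR adjusted p = 0.773, 0.926, 0.68 and 0.898). Because the *Th*-poor cells were all *Aldh1a7*−, the comparison was repeated in *Th*-rich cells alone. There the log2 difference of *Gabra2* was −0.03, that of *Gabrb1* −0.40, that of *Gabra4* 0.54 and that of *Gabrg1* 0.70, against −1.02 ± 0.75 for *Gabrg1* in all cells. The difference in *Gabra2* was thus near 0 without the *Th*-poor cells, and that in *Gabrg1* took the opposite sign. Of the 7 glial marker genes at least 1 was detected in 2 of 74 *Aldh1a7*+ and 12 of 135 *Aldh1a7*− cells, and of all 11 in 14 and 69 cells. Without the cells that had 1 of the 7, the log2 difference was 0.70 for *Gabra4*, −0.67 for *Gabrb1* and −1.29 for *Gabra2* (edgeR adjusted p = 0.436, 0.275 and 0.334). Without those that had any of the 11, it was 1.32, −0.32 and −0.32 (edgeR adjusted p = 0.395, 0.872 and 0.941), so those of *Gabrb1* and *Gabra2* were nearer to 0. Neuronal markers differed too. GABA neuron markers were detected in 2 of 74 *Aldh1a7*+ and 47 of 135 *Aldh1a7*− cells, and glutamate neuron markers in 25 and 88 cells. *Gad2*, which encodes a GABA-synthesising enzyme, was at 18.2 against 360.1 CPM on average (log2 −4.12, edgeR adjusted p = 0.191; DESeq2 adjusted p = 0.0214). *Slc17a6*, a vesicular glutamate transporter gene, was at 70.8 against 292 CPM and lower in 7 of 7 mice (log2 −1.92, edgeR adjusted p = 0.333). The part of the neuronal markers was not tested.

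*Neurod6*+ cells were compared in 6 mice (mice 1, 2, 3, 5, 7 and 8; 47 *Neurod6*+ and 133 *Neurod6*− cells). *Neurod6* itself was at 147 against 0.21 CPM on average, which follows from its having set the classes. Of 7 members 0 passed the edgeR test, beside 0.0555% of 12606 genes. By an unadjusted p under 0.05, 1 member was counted, beside 6.2% of genes, and by DESeq2 0, beside 1% of genes. That member was *Gabra2*, at 57.8, 62.2, 56.1, 8.92, 51.8 and 16.0 CPM in *Neurod6*+ and 187, 92.7, 17.2, 54.6, 91.5 and 189 CPM in *Neurod6*− cells. It was lower in 5 of 6 mice, with mouse 3 the other way (log2 −1.24 ± 0.56, edgeR p = 0.0438, adjusted p = 0.798). With the mouse as a replicate block the edgeR p was 0.0834 for *Gabra2*, 0.026 for *Gabrg1* (log2 −1.87) and 0.038 for *Gabrb2* (log2 0.54), so the members under 0.05 were others than without the block (edgeR adjusted p = 0.688, 0.525 and 0.57).

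*Gabra5* was at 65.6, 12.2, 2.12, 26.0, 3.03 and 41.0 CPM in *Neurod6*+ and 25.3, 10.5, 0.37, 0.34, 4.84 and 0.21 CPM in *Neurod6*− cells. It was higher in 5 of 6 mice with overlapping classes (log2 1.92 ± 1.14, edgeR adjusted p = 0.905). *Gabra5* was detected in only 7 of 49 *Neurod6*+ and 11 of 160 *Neurod6*− cells, so its values per mouse rest on few cells. *Gabrb2* was detected in all 49 *Neurod6*+ cells and in 131 of 160 *Neurod6*− cells (81.9%), and after thinning in 98.0 and 80.6%. Its summed level was 395 ± 148 and 314 ± 219 CPM (SD, n = 6 mice; edgeR adjusted p = 0.989). *Gabra3* was at 104 ± 21.9 and 108 ± 33.3 CPM (SD, n = 6 mice), and it took 40.8 ± 7.24% of the level of the 4 alpha members in *Neurod6*+ and 44.2 ± 5.46% in *Neurod6*− cells, lower in 4 of 6 mice. *Gabra4* (log2 0.54 ± 0.32), *Gabrb1* (0.12 ± 0.21) and *Gabrg1* (−1.05 ± 0.87) were not called (edgeR adjusted p = 0.905, 0.998 and 0.974).

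All 28 *Th*-poor cells were among the *Neurod6*− cells. In *Th*-rich cells alone the log2 difference by *Neurod6* status was −0.97 for *Gabra2* and −0.59 for *Gabrg1*, nearer to 0 than in all cells. Glutamate neuron markers were detected in 39 of 49 *Neurod6*+ and 74 of 160 *Neurod6*− cells (median summed level 152 and 7.13 CPM), and GABA neuron markers in 10 and 39 cells. Of the 7 glial marker genes at least 1 was detected in 2 of 49 and 12 of 160 cells, and of all 11 in 22 and 61 cells. *Mbp*, which encodes a myelin protein, was at 32.0 against 211 CPM on average (log2 −2.76, edgeR adjusted p = 0.578). Without cells that had 1 of the 7 genes the log2 difference of *Gabra2* was −1.37, and without those that had any of the 11 it was −1.13. The part of the neuronal markers was not tested.

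**Figure D5:**
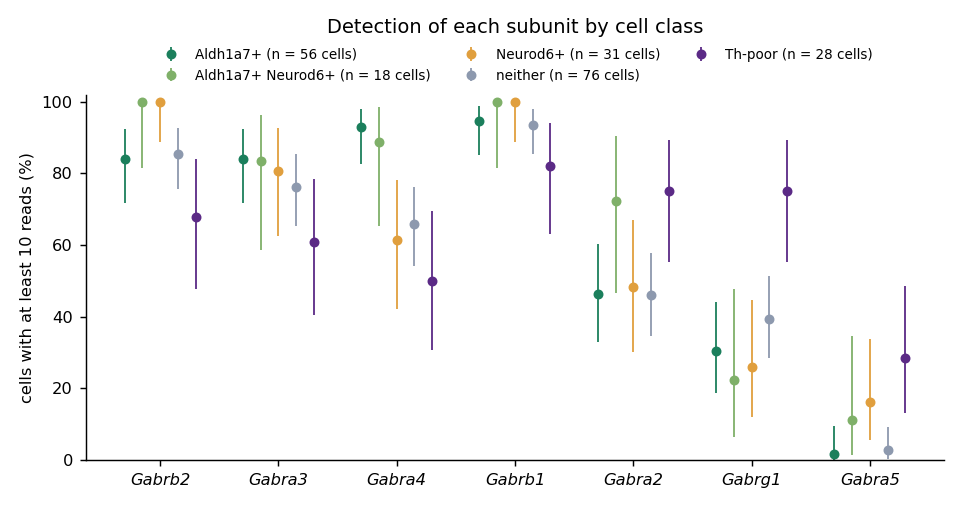
Percent of cells with 10 or more reads of each subunit gene in each class of cells, with exact 95% binomial intervals that cover counting error only. *Gabra4* was in 92.9% of cells with *Aldh1a7* and not *Neurod6*, and *Gabra2* and *Gabrg1* were each in 75% of *Th*-poor cells.

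Summed over all retained cells, *Gabrg1* and *Gabra2* were higher in the 3 mice labelled female than in the 5 labelled male without overlap. With the sex of at least 1 mouse in conflict, this is a comparison of the labels. *Gabrg1* was at 144 to 198 CPM in female and 10.1 to 77.7 CPM in male mice (log2, male minus female, −1.92 ± 0.46, edgeR p = 0.00205, adjusted p = 0.412; DESeq2 adjusted p = 0.00836). *Gabra2* was at 164, 266 and 162 CPM in female and 83.3, 23.9, 47.1, 74.6 and 102.01 CPM in male mice (−1.57 ± 0.40, edgeR p = 0.00302, adjusted p = 0.456; DESeq2 adjusted p = 0.0208). Non-overlapping values were found for 2 of 7 members, beside 5.6% of 15529 genes. Of 7 members 0 passed the edgeR test, beside 0.0322% of genes, 3 had an unadjusted p under 0.05, beside 8.12% of genes, and 2 passed by DESeq2, beside 1.22% of genes. *Gabra5* was the third (−1.98 ± 0.87, edgeR p = 0.0462, adjusted p = 0.601). The other members overlapped between the sexes, with means in male and female mice of 100.1 and 124 CPM for *Gabra3*, 129.8 and 111 for *Gabra4*, 223 and 295 for *Gabrb1* and 360 and 219 for *Gabrb2* (edgeR adjusted p = 0.789, 0.888, 0.709 and 0.675).

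The make-up of the cells differed between the sexes too. *Th*-poor cells were 23.5 to 38.9% of cells in female mice (median 33.3%) and 2.22 to 14.7% in male mice (median 8.33%). In *Th*-rich cells alone, a comparison chosen after the data were seen, the log2 difference was −0.64 for *Gabra2* and −0.83 for *Gabrg1*. It was thus smaller than with the *Th*-poor cells for both genes. The 3 female mice were labelled 25, 33 and 36 days old and the 5 male mice 24 to 28 days, all 3 females were captured on 1 of the 2 machines, and fewer cells came from females (47 against 162). In the mice of that machine alone the differences were −1.32 and −1.79. Glial markers were detected in 3 of 18 cells of mouse 1, in 0 cells of the other females and in 1 to 4 cells of each male by the 7 genes. By all 11 they were in 12 of 18, 6 of 12 and 8 of 17 cells of the females (mice 1, 4 and 6) and in 15 of 34, 13 of 45, 10 of 38, 8 of 24 and 11 of 21 cells of the males. The share of such cells was thus higher in each female than in each male other than mouse 8. Single markers also ran the other way. *Mag* and *Cldn11*, oligodendrocyte genes, had no reads in the 3 females and were at 0 to 78.3 and 0 to 66.8 CPM in males (edgeR p = 0.0233 and 0.0239, adjusted p = 0.537 and 0.54), and *Mobp* was at 0.0687 to 0.24 CPM in females and 0 to 285 CPM in males. The microglia gene *P2ry12* had no reads in females and was at 0 to 2.32 CPM in males (edgeR p = 0.00928, adjusted p = 0.51). The astrocyte gene *Aldh1l1*, also without reads in females, was at 0 to 4.01 CPM in males (edgeR p = 0.0394, adjusted p = 0.589). The other astrocyte genes had higher means in female than in male mice. These were *Slc1a3* (98.9 against 0.24 CPM), *Gja1* (82.5 against 8.33), *Aqp4* (2.35 against 0.19), *Gfap* (1.20 against 0.00609) and *Agt* (5.35 against 4.12). Mouse 1 was the highest mouse for each of them, at 296, 247, 7.05, 3.61 and 14.8 CPM. *Slc17a8*, a vesicular glutamate transporter gene, was at 0.82 to 19.4 CPM in females and 1.19 to 2.19 CPM in males (edgeR p = 0.00724, adjusted p = 0.51). The part of these markers was not tested. Age and sex cannot be told apart for the older mice.

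No gene of the pathway lists given here was called by edgeR outside the members. Of 9 other GABA-A subunit genes, 1 or 2 had enough reads to be tested in each comparison, and 0 were called in any of the 4 by edgeR or by DESeq2. By an unadjusted p under 0.05 there was 1 of 2 tested by *Aldh1a7* status, beside 11% of all genes. There were 0 by *Neurod6* status, *Th* status and sex, beside 6.2, 9.36 and 8.12% of all genes. That gene was *Gabrq*. It was lower in *Aldh1a7*+ cells in 7 of 7 mice (43.2 against 201 CPM on average; edgeR p = 0.044, adjusted p = 0.435). *Gabrq* was detected in 24.3% of *Aldh1a7*+ and 58.5% of *Aldh1a7*− cells.

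A list of 17 genes of the inhibitory synapse and of receptor trafficking, such as the receptor-binding proteins *Plcl1* and *Hap1*, also had 0 calls by edgeR in each comparison, with 15 or 16 genes tested. By an unadjusted p under 0.05 there were 3 by *Aldh1a7* status, 2 by *Neurod6* status, 1 by *Th* status and 2 by sex, beside 11, 6.2, 9.36 and 8.12% of all genes. By DESeq2, with 2.69, 1, 3.23 and 1.22% of all genes, there were 2 by *Aldh1a7* status (*Plcl1* and *Hap1*, both lower in *Aldh1a7*+ cells), 1 by *Neurod6* status (*Plcl1*, lower in *Neurod6*+ cells) and 0 by *Th* status and sex. A list of 6 chloride transport genes, among them the cotransporter genes *Slc12a2* and *Slc12a5*, whose products set much of the chloride gradient in neurons, had 0 calls by edgeR, 0 at an unadjusted p under 0.05 and 0 by DESeq2. The median log2 difference of the 7 members was −0.64 by *Aldh1a7* status, 0.12 by *Neurod6* status, −0.87 by *Th* status and −0.39 by sex, beside 0.00, 0.00, −0.10 and 0.02 over all genes tested. *Gabarap*, a receptor trafficking gene, was listed at 0 in every cell. Reads on more than 1 gene had been left out by the authors, so this 0 does not show that the gene was not expressed.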

How the data were processed

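Single cells of 8 mice were measured by single-end RNA sequencing of amplified cDNA. The authors aligned reads to GRCm38 with TopHat2 (2.1.1), removed those of low quality by Trimmomatic (0.3.2) and counted the rest per RefSeq gene with featureCounts (1.5.0-p3), leaving out reads on more than 1 gene. The deposited values are raw read counts without molecular identifiers, not normalised, for 47082 gene entries (5721 without a value). The authors also deposited Picard scores of 5′ and 3′ coverage bias. The library kit does not mark strand.

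Cells under 500000 reads were left out. Spike-in and reporter entries (0.00132% of reads) were left out of the tested sums. They were kept in the totals used for the read minimum, the levels over all cells and the CPM of single cells. Counts were summed per mouse and class, with at least 3 cells per class, and tested with edgeR (4.0.16; TMM, quasi-likelihood F-test, low-count filter, Benjamini-Hochberg adjustment over all genes, threshold 0.05). The SE was the log2 fold change divided by the square root of F. DESeq2 (1.42.0) was an alternative. The script was tested on simulated data. Python (3.11.15) and R (4.3.3) were used. A class is a pool of 1 mouse's cells, so same-numbered sums come from the same animal. Correlations of their deviations from the class means were 0.0411 to 0.206 by *Aldh1a7*, 0.0661 to 0.289 by *Neurod6* and 0.0314 to 0.169 by *Th* status. A fit with the mouse as a replicate block is given where it changes a call. All 7 members are named in every comparison, with the 3 genes most like each. Other listed genes are named by the test, and some other subunits as context. *Plcl1* and *Hap1* were named after their values were seen. Some genes are not reported here and were left out of the lists, shares and rankings. Members and lists were chosen with earlier results of these data known. Intervals cover counting error only. All sexes and ages are as labelled per cell.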

Additional observations from a re-analysis of the deposited data

Results flagged for a closer look

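Of 56 groups of mice checked for a value far from the rest, 7 had one. Chance gives about 1 in 20 for independent groups, but these groups share mice and cells. In *Aldh1a7*+ cells mouse 8 stood above the other mice in *Gabra4* (339 CPM against 92.7 to 191), *Gabra5* (61.0 against 0 to 4.32) and *Gabrb1* (265 against 129.7 to 186). Mouse 8 had 6 such cells, and its *Gabra5* value came from 1 of them, at 302 CPM with 0 in the others. Another cell was the highest for *Gabra4* (709 CPM against 152 to 465 in the others) and *Gabrb1* (769 against 100 to 254). In *Aldh1a7*− cells mouse 4 stood above in *Gabra5* (76.6 CPM against 0 to 16.7). In *Neurod6*+ cells mouse 3 stood above in *Gabra4* (260.1 CPM against 106 to 159). In *Th*-rich cells mouse 1 stood above in *Gabra5* (45.4 CPM against 0 to 4.87) and *Gabrg1* (129 against 20.7 to 42.9).

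The *Aldh1a7* difference was compared between female and male mice, with 14 such differences tested over *Aldh1a7* and *Th* status. For *Gabra2* the mean log2 difference was −2.25 in 2 female and −0.62 in 5 male mice, −1.63 apart (two-sided exact permutation p = 0.0476, the smallest 7 mice allow; adjusted p = 0.333). For *Gabrb2* it was −2.52 and −0.14, −2.38 apart (exact permutation p = 0.0476, adjusted p = 0.333). With a smallest p of 0.0476 over 7 mice and 0.1 over 5 mice, no difference among 14 could pass the correction.

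All 7 members had more than 3 reads in the 175 cells that were left out for low totals. Their summed levels there were 34.3 CPM for *Gabra2*, 38.6 for *Gabra3*, 80.1 for *Gabra4*, 1.94 for *Gabra5*, 183 for *Gabrb1*, 135 for *Gabrb2* and 39.6 for *Gabrg1*.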

How the results depend on the processing

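By *Th* status the count of members called was 1. It was 2 with DESeq2, with a minimum of 250000 reads, without cells with glial markers and with *Th*-rich from 300 CPM, and 0 with no low-count filter, a minimum of 750000 reads, the replicate block or at least 1 cell per class, also without cells with any marker of both glial lists. Leaving out 1 mouse gave 0 to 2 (2 without mouse 1, 0 without mouse 2, 4, 5 or 6). By sex it was 0, and 2 with DESeq2. The replicate block changed no other call of a member. Of 6 neighbouring pairs in the order of levels, 4 had p under 0.05, 2 with medians over cells or a minimum of 250000 reads, and 1 to 3 without 1 mouse. The median detection share was 72.2%, 84.2% from 1 read and 48.8% from 50 reads, and the median share of cells with both members of a pair was 37.8%, 54.1% and 17.2%. The cause of these changes was not tested.

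Signs changed in these cases. By *Aldh1a7* status, *Gabra2* was 0.0204 in *Th*-rich cells with the replicate block, *Gabra5* 0.26 when positive from 1 read and −4.41 to 0.60 without 1 mouse, and *Gabrg1* 0.0675 without cells with any marker of both glial lists, 0.70 in *Th*-rich cells and 1.22 there with the block. By *Neurod6* status, *Gabra3* was 0.0354 with DESeq2, 0.0367 with RLE size factors, 0.0366 with the block, 0.11 from 250000 reads, 0.15 from 1 read, 0.17 in cells without *Aldh1a7* and −0.12 to 0.21 without 1 mouse, and *Gabrb2* was −0.0491 from 750000 reads. By *Th* status *Gabrb2* was 0.0337 with at least 1 cell per class, and *Gabra5* 0.86 there without cells with any marker of both glial lists. By sex *Gabra4* was −0.0374 in *Th*-rich cells and −0.0288 to 0.45 without 1 mouse. None of these values was called.

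Counts over all genes were 52 by *Aldh1a7*, 7 by *Neurod6* and 48 by *Th* status and 5 by sex with edgeR. They were 344, 126, 366 and 190 with DESeq2, and 29, 1 and 10 with the block for the 3 classes. The minimum of 250000 reads gave 107 by *Aldh1a7* and 74 by *Th* status, and that of 750000 reads 11 by *Aldh1a7* status, 0 by *Th* status and 3 by sex. No filter gave 3 by *Neurod6* and 15 by *Th* status, and RLE size factors gave 3 higher and 1 lower by *Neurod6* status in place of 3 and 4. Without cells with glial markers there were 33 by *Aldh1a7*, 4 by *Neurod6* and 91 by *Th* status, and without any marker of both glial lists 15, 11 and 0 (the last by edgeR with at least 1 cell per class, where 681 genes had an unadjusted p under 0.05). In *Th*-rich cells there were 14 by *Aldh1a7* and 1 by *Neurod6* status, and with the block there 18 and 2. Positive from 1 read gave 14 by *Aldh1a7* and from 50 reads 3 by *Neurod6* status. *Th*-rich from 300 and 3000 CPM gave 86 and 21. The mice of 1 machine gave 0 by sex. Without 1 mouse the counts were 14 to 87 by *Aldh1a7*, 1 to 18 by *Neurod6* and 3 to 72 by *Th* status. Both alternatives without glial-marker cells, *Th*-rich cells with the block, and *Th*-rich cells by sex were chosen after seeing the data. Thinning every cell to 500000 reads moved the share of cells with *Gabra5* from 8.61 to 7.66%.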
